A study of Drosophila melanogaster with 18 samples.

Results

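The Dam-PolII occupancy of genes in the visceral mesoderm (VM) of Drosophila melanogaster embryos was ranked from the 3 libraries labelled bap Dam-PolII. Counts at GATC sites were scaled to the library total (CPM), summed over the sites inside each Release 6 gene and divided by the number of those sites, which gives a density in CPM per site. Genes with 3 or more sites were kept, and 13638 of 18358 annotated genes qualified. Another 2675 genes held 1 or 2 sites, and 2045 held 0. The series has 18 libraries of genomic DNA in 6 groups of 3, made by targeted DamID (TaDa) to ask how the receptor tyrosine kinase Alk alters transcription in the mesoderm. In this method RNA polymerase II is fused to Dam, a bacterial enzyme that methylates adenine in the sequence GATC, and the fusion is expressed only where a GAL4 driver is active.

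By their label, the bap Dam-PolII embryos carried Dam-PolII under bap-GAL4, named bap3-GAL4 in the study's methods, with no added transgene acting on Alk. The reads over jeb, given below, go against that label. Dam-PolII is expressed in all groups of the series. The other groups add Alk.DN, a dominant-negative receptor, or Jeb, the Alk ligand, and only the twi Dam-PolII group, with the twi2xPE-GAL4 driver and likewise no Alk transgene, is compared here. The bap driver is active in the VM and the twi driver in the mesoderm at large, so a profile reports every cell in which the driver was or had been active. Embryos were collected over 4 h at 25°C and aged to stage 10 to 13, and each sample was a pool of 50 µl of embryos. No library with Dam alone was used here, so densities include whatever methylation depends on open chromatin and not on polymerase. The labels number the replicates but do not say how they were kept separate, so the spread and the p-values below describe these libraries.

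As background, the VM arises from dorsal mesoderm under the homeodomain factor Bagpipe and the forkhead factor Biniou, and it forms the circular muscles of the midgut. Its cells become founder cells or fusion-competent myoblasts. Jeb secreted by the neighbouring somatic mesoderm activates Alk, signals through Ras and ERK, and specifies the founder cells. A methylated GATC is a lasting mark, so the TaDa signal accumulates over the time that the driver is active and is not a level of mRNA.

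One conflict with the labels has to be stated before the results. The first exon of jeb, with 9 sites, held 382, 367 and 470 CPM in replicates 1, 2 and 3 of the bap Dam-PolII label, against 4.95, 3.45 and 3.41 CPM in twi Dam-PolII. In these bap libraries the 23 exonic sites of jeb averaged 17.9 ± 2.35 CPM per site (SD, n = 3) and its 29 other sites 0.158 ± 0.0439. Of the 3 libraries labelled bap Jeb, which should carry a jeb transgene, replicates 2 and 3 held 258 and 249 CPM over the first exon and replicate 1 held 5.57. The libraries labelled twi Jeb held 4.93, 351 and 621 CPM there. The exons of Polr2A, the largest subunit of RNA polymerase II, averaged 41.4 ± 0.465 CPM per site in bap Dam-PolII, 5.31 ± 0.0925 in twi Dam-PolII and 0.854 ± 0.208 in bap Alk.DN. In twi Alk.DN they averaged 0.792 ± 0.0902. Polr2A is among the genes that the Dam-PolII construct itself could carry. That construct is expressed in all groups, however, and the exon signal differed between them. The sites of Polr2A outside exons averaged 16.3 and 17.6 CPM per site in bap and twi Dam-PolII, and 16.3 and 10.4 in bap and twi Alk.DN. The source of the difference over exons was not tested. All 3 bap libraries carried both signals, so none could be left out, and the origin of the reads was not tested. Whether these embryos also expressed Jeb, or whether libraries were exchanged between groups, cannot be told from the labels. The densities of jeb and Polr2A are therefore not read as occupancy, and "bap Dam-PolII" below means the libraries so labelled.

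The libraries held 6861886, 8799619 and 10140429 counts over 400733 sites, and 3 counts, the limit that a count of 0 allows, correspond to 0.296 to 0.437 CPM at a site. Of all sites, 36.2% were at 0 in all 3 libraries. Ranked by density, genes correlated between replicates with a Spearman rho of 0.938 to 0.944 across genes, which are not independent points, and with the twi Dam-PolII libraries at 0.837 to 0.861. Outside the group, rho was highest with replicate 2 of bap Jeb, at 0.900 to 0.911, and of twi Jeb, at 0.866 to 0.872. Replicates 3 of bap and twi Jeb had 0.851 to 0.858 and 0.821 to 0.824. Replicates 1, without the high jeb reads, had 0.767 to 0.773 and 0.733 to 0.734. The cause was not tested. The top 100 genes of the 3 libraries had 84 in common. The median coefficient of variation between replicates was 9.37% for ranks 1 to 100 and 52.5% for the lower 50% of genes, so the upper part of the ranking is far better determined than the lower part.

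The sequences that carry the strongest signals are given first, from the Release 6 genome, with each GATC in capitals. They run 5′ to 3′ on the strand of the gene, except for the Btk fragment. The strongest pair of sites in the genome lay in an intron of Btk, which encodes a Tec family tyrosine kinase, at the ends of the fragment chr2L:8277709-8277974. This fragment is printed on the plus strand, whereas Btk lies on the minus strand, so upstream is to the right.
Btk: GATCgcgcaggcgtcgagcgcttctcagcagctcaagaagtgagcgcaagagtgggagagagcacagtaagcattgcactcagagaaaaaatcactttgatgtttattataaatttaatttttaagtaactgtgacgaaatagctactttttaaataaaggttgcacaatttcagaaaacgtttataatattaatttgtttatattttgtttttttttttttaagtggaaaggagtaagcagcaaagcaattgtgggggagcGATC
The left site held 2380, 2500 and 3130 CPM and the right site 2360, 2480 and 3090 CPM in replicates 1, 2 and 3. The left site lies 8 bp upstream of the nearest annotated start of a Btk transcript, and both sites are ends of 1 fragment, so their values are not independent. In twi Dam-PolII the left site averaged 1740 ± 402 CPM, so that the lowest bap library stood above the highest twi library, at 2040 CPM.

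The promoters of 5 further genes, from 250 bases before to 50 after the gene start, are shown with their GATC sites. The upstream sites of Hand and Tm2 lie outside the gene and do not enter its density. The site inside the gene held 56.4% of the counts of Hand and 25.0% of those of Tm2. CG3909 did not pass the test between bap and twi Dam-PolII, Septin2 has nearly all of its counts at 1 site, Tm2 is a muscle gene, and Hand and CG45116 were higher in bap. They are CG3909 (chr3R:10043020-10043319, plus), Septin2 (chr3R:20588307-20588606, minus), Hand (chr2L:10295336-10295635, minus), Tm2 (chr3R:15309943-15310242, plus) and CG45116 (chr3L:22699183-22699482, plus).
CG3909: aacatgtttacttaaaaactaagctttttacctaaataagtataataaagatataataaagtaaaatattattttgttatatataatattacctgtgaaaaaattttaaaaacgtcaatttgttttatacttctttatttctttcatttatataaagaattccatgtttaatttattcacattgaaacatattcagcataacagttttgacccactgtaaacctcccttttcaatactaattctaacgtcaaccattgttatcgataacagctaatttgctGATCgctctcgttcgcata
Septin2: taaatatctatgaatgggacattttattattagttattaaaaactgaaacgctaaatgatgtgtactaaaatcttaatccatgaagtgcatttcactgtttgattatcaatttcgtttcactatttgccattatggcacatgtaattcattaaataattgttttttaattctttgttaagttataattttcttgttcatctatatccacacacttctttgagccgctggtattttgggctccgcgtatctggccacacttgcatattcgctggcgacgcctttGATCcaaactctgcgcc
Hand: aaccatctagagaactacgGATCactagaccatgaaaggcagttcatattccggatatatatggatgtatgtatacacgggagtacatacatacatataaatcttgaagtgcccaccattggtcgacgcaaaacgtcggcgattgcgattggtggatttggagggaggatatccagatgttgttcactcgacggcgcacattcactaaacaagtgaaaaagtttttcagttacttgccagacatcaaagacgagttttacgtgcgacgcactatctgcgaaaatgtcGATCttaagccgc
Tm2: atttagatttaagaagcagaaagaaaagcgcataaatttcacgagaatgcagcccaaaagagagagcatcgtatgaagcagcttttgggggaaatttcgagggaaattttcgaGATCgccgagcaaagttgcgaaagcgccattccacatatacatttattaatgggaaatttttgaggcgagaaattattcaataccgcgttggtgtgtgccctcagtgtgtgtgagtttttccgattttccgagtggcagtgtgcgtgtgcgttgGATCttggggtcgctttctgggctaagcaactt
CG45116: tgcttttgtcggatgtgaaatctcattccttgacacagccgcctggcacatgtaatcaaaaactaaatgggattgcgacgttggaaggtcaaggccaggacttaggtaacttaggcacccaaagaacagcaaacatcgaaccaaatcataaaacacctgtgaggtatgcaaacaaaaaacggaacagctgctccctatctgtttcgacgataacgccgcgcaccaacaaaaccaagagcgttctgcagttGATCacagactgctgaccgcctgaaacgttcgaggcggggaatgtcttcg
The GATC of CG3909, 32 bp after the gene start, held 1180, 1190 and 1120 CPM, close to 1180 ± 94.7 CPM in twi Dam-PolII. That of Septin2, which encodes a septin cytoskeletal GTPase, held 648, 672 and 693 CPM, above the 621, 576 and 601 CPM of twi Dam-PolII. In the Hand promoter the upstream site held 440, 313 and 320 CPM and the site inside the gene 184, 151 and 158 CPM. The Tm2 promoter, of a muscle tropomyosin gene, held 253 ± 19.7 and 422 ± 67.0 CPM at its GATC sites. The single site of CG45116 held 246, 334 and 333 CPM, against 11.2, 3.15 and 7.56 CPM in twi Dam-PolII.

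Gene density was strongly skewed. The median gene had 0.583 CPM per site, the 90th percentile was 6.99, the 99th was 42.1 and the highest gene reached 604. The top 10% of genes, 1364 in number, held 68.6% of the summed density, and 577 genes held 50% of it. At the other end 248 genes were at 0 in all 3 libraries and 1067 genes (7.82%) had 3 counts or fewer in every library, where order cannot be told. These include 584 genes with only 3 to 5 sites.

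**Figure D1:**
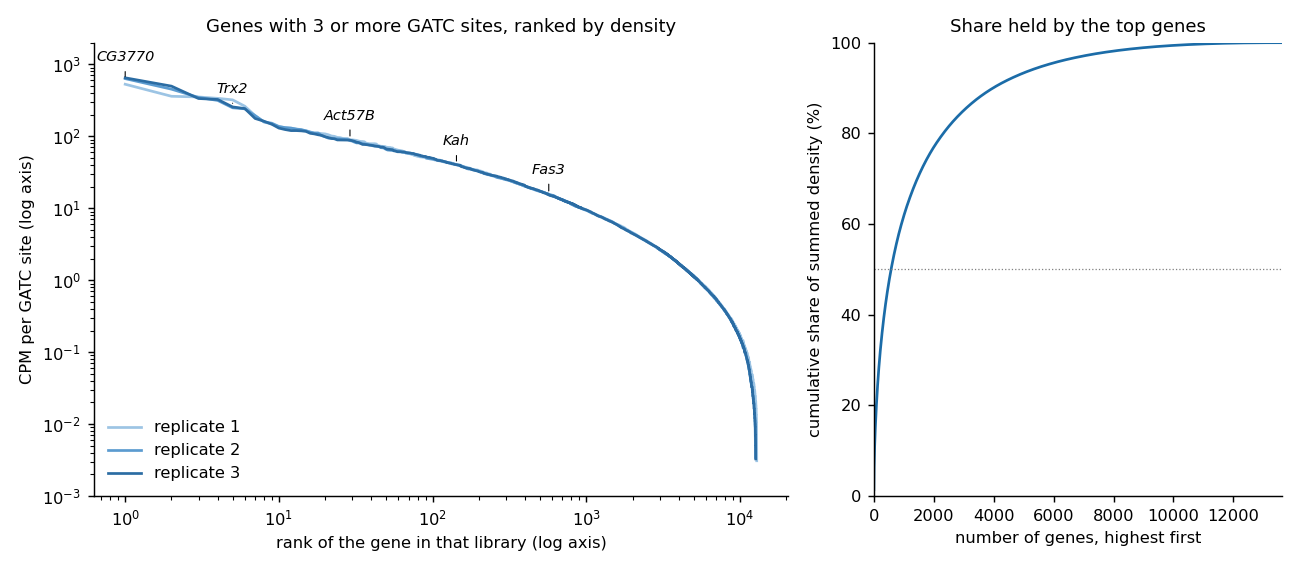
Left, density of each gene (CPM per GATC site, log axis) against its rank in each of the 3 bap Dam-PolII libraries (log axis). Right, cumulative share of the summed density (%) of the mean over libraries against the number of genes, highest first, where 577 genes reach the dotted line at 50%.

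The highest gene was CG3770, an uncharacterised gene at chr2R:24945139-24946636, with 529, 633 and 650 CPM per site. It held 78.9% of its counts at 1 exonic site 83 bp from its start, and a neighbouring site in CG15861, on the other end of the same 488 bp fragment, held 1630 ± 199 CPM. The non-coding gene lncRNA:CR45360 was next with 437 ± 70.6, and then came CG3909 with 337 ± 11.1, lncRNA:CR43642 with 324 ± 10.2 and Trx2, a thioredoxin gene, with 256 ± 6.51 CPM per site. In every library CG3770 stood above lncRNA:CR45360, whereas the values of CG3909 (337, 347 and 325) and lncRNA:CR43642 (321, 315 and 335) overlapped.

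Among the other genes of the top 25 were Sec61beta, a subunit of the endoplasmic reticulum translocon (226 ± 27.9 CPM per site), the transaldolase gene Taldo (101 ± 16.6), the ribosomal protein gene RpS30 (95.7 ± 20.3) and Gclm, the modifier subunit of the enzyme that starts glutathione synthesis (95.2 ± 2.95). A lectin gene, galectin, reached 96.6 ± 10.4, but 4 of its 5 sites also lie in asRNA:CR44987, and the site outside the overlap had 2.72 CPM. The cuticle protein gene Cpr78E reached 129 ± 4.17 CPM per site, next to lncRNA:CR45920 at 154 ± 6.90. In the same 50 kb window of chromosome 3L lies one of the 10 highest sites of the genome, intergenic and 412 bp upstream of lncRNA:CR45920, with 1380, 1430 and 1440 CPM. The mitochondrial genes mt:Cyt-b and mt:CoI also ranked in the top 25, at 241 ± 96.3 and 106 ± 44.9, although mitochondrial DNA is not transcribed by RNA polymerase II. Replicate 1 was the highest, with mt:Cyt-b at 352, 194 and 177 and mt:CoI at 158, 83.0 and 77.1 CPM per site in replicates 1 to 3. The place of mt:CoI in the top 25 thus rests on replicate 1, whereas mt:Cyt-b was above the 25th gene in every library.

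Short genes made up most of the top. Of the top 25, 18 had 3 to 5 sites, against 23.2% of all genes, and 9 were non-coding, against 8.70%. Sites shared with another gene occurred in 8 of the 25, near the 33.5% of all genes. In asRNA:CR42860, asRNA:CR43243 and lncRNA:CR44867 every site was shared, with sls, CG10433 and beat-Ib, so their density cannot be told from that of the host. Septin2 shows how much a single site carries, since 94.5% of its counts fell on the site shown above and its sites outside the overlap with asRNA:CR46044 averaged 6.46 CPM. In genes with 3 to 5 sites the top site held a median of 62.4% of the counts, and in genes with over 100 sites 15.3%. The median density rose with the number of sites, from 0.414 CPM per site in genes with 3 to 5 sites to 1.29 in genes with over 100.

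Long genes, with more than 30 sites, average out single peaks. Among these 2312 genes, chosen for description after their values were seen, lncRNA:CR43334, whose annotation includes the bantam miRNA locus, ranked highest with 73.5 ± 3.34 CPM per site over 52 sites. Btk followed with 66.8 ± 9.01 over 87 sites, of whose counts its strongest site held 46.0%. Diap1, an inhibitor of apoptosis, had 52.3 ± 3.28 and the RNA-binding gene how 33.1 ± 1.49. CrebA, a factor that drives secretory genes, had 40.1, 32.8 and 31.4 CPM per site, all above the 10.8 ± 0.220 of twi Dam-PolII.

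Mesodermal and muscle genes stood high in the ranking and sensory and adult-stage families low. The lists were chosen with earlier results of these data known and are described by counts and medians. The VM list had a median percentile of 96.2, where 50 is the median gene, and 9 of its 12 members were in the top 10%. Its highest members were mib2, an E3 ubiquitin ligase gene of muscle (50.9, 58.8 and 61.9 CPM per site), the bHLH factor gene Hand (46.6, 38.8 and 39.7), Kah, a Snail family zinc finger gene (40.4 ± 1.16), and fax (26.7, 31.9 and 34.9). Kah and fax were chosen by the study from these libraries, so their rank is no independent evidence. The homeobox gene H2.0 followed with 25.6 ± 1.10, the T-box gene org-1 with 18.3 ± 1.15, the adhesion gene Fas3 with 15.5 ± 0.236, the forkhead gene bin with 13.7 ± 1.85 and the receptor gene Alk with 8.96 ± 1.86. The gene bap itself, whose enhancer drives the GAL4, had 2.91, 2.46 and 3.38, at rank 2818, and NetB and Antp had 2.08 ± 0.265 and 2.07 ± 0.205. The VM markers outside the top 10% were thus bap, NetB and Antp, and none was at 0.

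**Figure D2:**
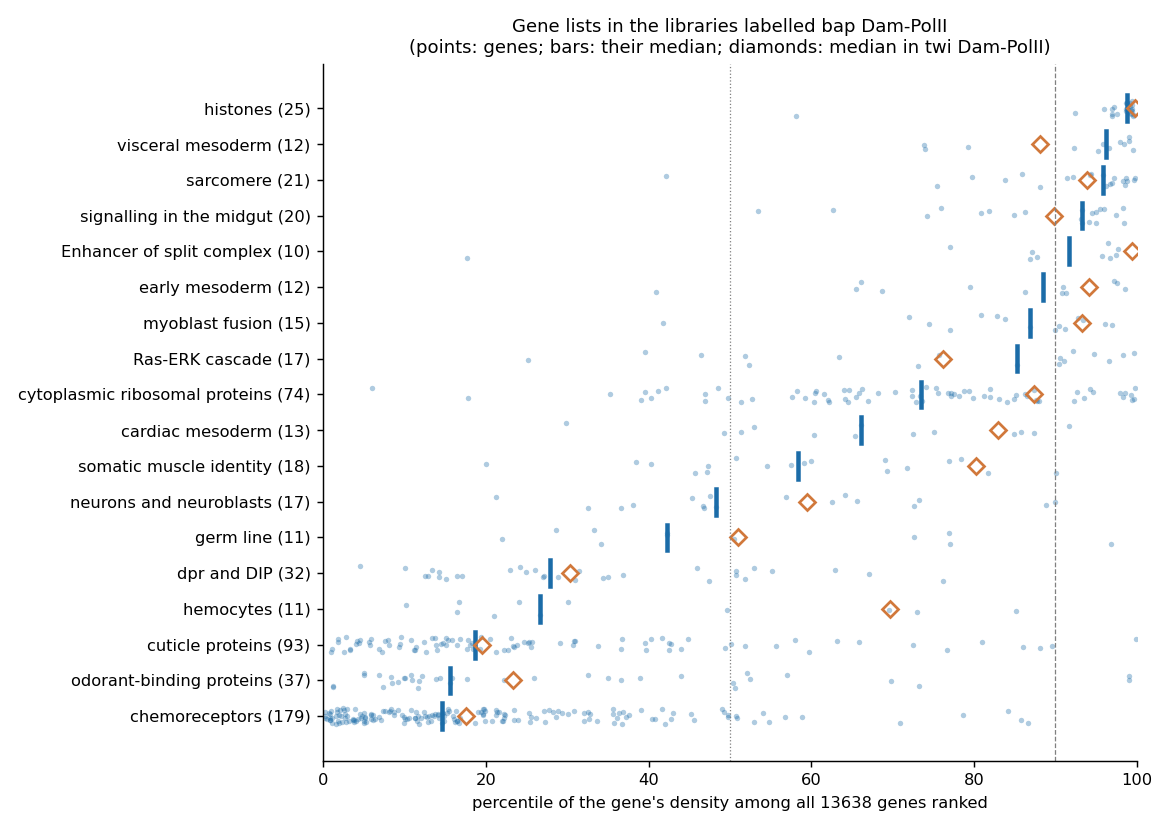
Percentile of each gene (points) of 18 lists in the bap Dam-PolII ranking, with the list median (bars), the median in twi Dam-PolII (diamonds) and lines at 50 and 90; numbers in brackets are genes. Histone, VM and sarcomere medians sit at 98.8, 96.2 and 95.8, and that of chemoreceptors at 14.6.

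Sarcomere genes, which build the contractile apparatus, had a median percentile of 95.8, and 15 of 21 were in the top 10%. Actin gene Act57B led with 87.7, 89.9 and 92.4 CPM per site, and tropomyosin gene Tm2 followed with 78.2, 58.6 and 57.7. Obsc, the gene of a giant kinase of the M-line, was lowest with 0.397 ± 0.0860. Genes of signalling in the midgut had a median percentile of 93.3 with 12 of 20 in the top 10%. Among these were shn, a nuclear cofactor of Dpp signalling (31.0 ± 2.28), the Wingless receptor gene fz2 (28.8 ± 2.77), the Hedgehog receptor gene ptc (22.6 ± 0.663) and the ligand genes dpp (13.6, 13.1 and 13.4) and wg (11.3, 13.5 and 12.2). In the Ras-ERK cascade, with a median percentile of 85.3 and 8 of 17 members in the top 10%, the adaptor gene dos had 64.3 ± 7.52, whereas rl, the ERK gene, had 0.632 ± 0.0789.

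Other mesodermal lists stood lower. Early mesoderm genes had a median percentile of 88.5, with how at 33.1 ± 1.49 and Mef2, a muscle transcription factor gene, at 23.1 ± 1.60, but twi at 0.375 ± 0.0200 CPM per site. The gene twi shares 162 of its 234 sites, and its unshared sites averaged 0.754. Myoblast fusion genes were at 86.9, cardiac mesoderm genes at 66.1 with 1 of 13 in the top 10%, and somatic muscle identity genes at 58.3 with 1 of 18. Markers of other tissues were lower or mixed. Trachea stood at 73.5, glia at 72.8, epidermis at 70.9, fat body at 58.7 and endoderm at 57.1. Neurons and neuroblasts stood at 48.3 with 0 of 17 in the top 10%, and hemocytes at 26.7 with 0 of 11. Of the hemocyte markers PPO1, a prophenoloxidase gene of crystal cells, had 0.107, 0.0299 and 0.119 CPM per site, and Hml, a clotting protein gene, had 0.121 ± 0.0379.

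Genes used in every cell were not uniformly high. Cytoskeleton and constitutive genes had a median percentile of 89.9, with 7 of 15 in the top 10%. Cytoplasmic ribosomal protein genes had a median percentile of 73.5, with 12 of 74 in the top 10% and RpS30 at their head. Mitochondrial ribosomal protein genes stood at 58.9 and proteasome genes at 51.5. Histones had the highest median of any list, 98.8, with 24 of 25 in the top 10%, but only these 25 histone genes hold 3 or more sites. The copies of His1 among them, between 16.1 and 80.6 CPM per site, are near-identical, and reads could be divided between copies, so they are uncertain one by one. Of the sensory and adult families, chemoreceptors had a median percentile of 14.6 with 0 of 179 in the top 10%, odorant-binding proteins 15.6, seminal fluid proteins 15.8 and cuticle proteins 18.7. Exceptions were the odorant-binding genes Obp28a and Obp99a, at 42.5 and 42.4 CPM per site, and Cpr78E.

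Occupancy was highest at gene starts. Sites within 250 bp of a transcript start averaged 9.28 ± 0.0519 CPM per site against 2.33 ± 0.00588 in gene bodies, and the log2 ratio was 1.99, 2.00 and 2.00 in the 3 libraries. Sites within 250 bp made 7.63% of sites and took 27.12%, 27.35% and 27.41% of counts in replicates 1 to 3, with exact (Clopper-Pearson) 95% intervals of 27.09 to 27.15, 27.32 to 27.38 and 27.38 to 27.44, which cover counting error only. The profile peaked at 14.6 ± 0.0736 CPM per site from 0 to 100 bp after the start and at 12.5 ± 0.110 in the 100 bp before it, and was 1.95 at the far upstream end of the profile. Along genes with 10 or more sites, each divided into 5 equal stretches, density fell from 6.19 ± 0.0461 in the stretch nearest the start to 1.40 ± 0.00527 in the last. In such genes of the top 10% these stretches had 34.1 ± 0.377 and 5.99 ± 0.0354.

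**Figure D3:**
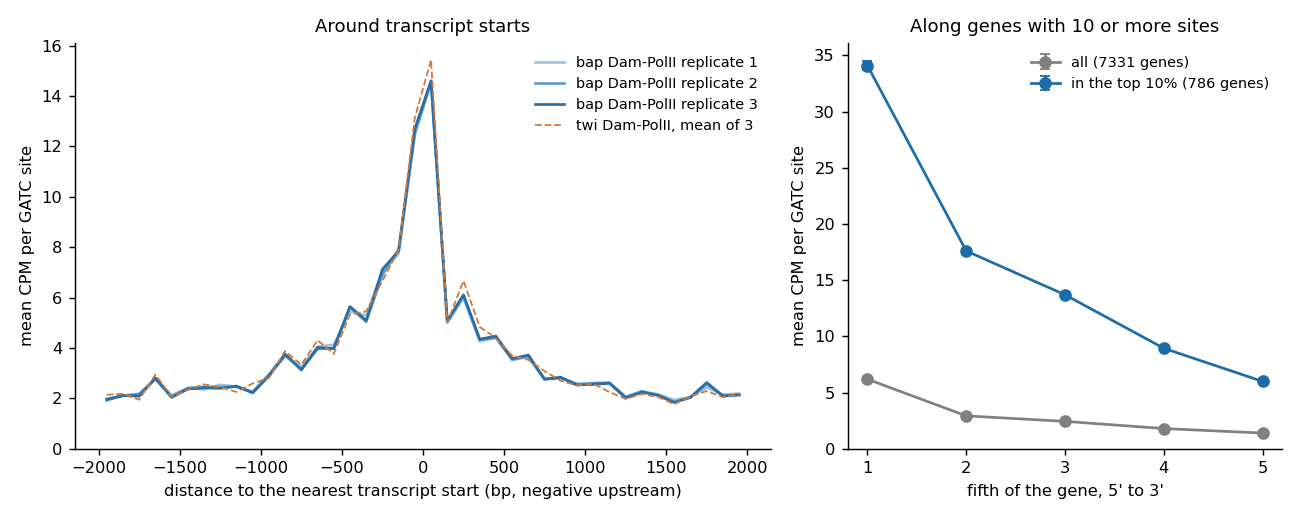
Left, mean CPM per GATC site in 100 bp bins around the nearest transcript start (bp, negative upstream), for each bap Dam-PolII library and the twi Dam-PolII mean, peaking at 14.6 in bap. Right, mean ± SD of 3 bap libraries in 5 equal stretches along 7331 genes with 10 or more sites and the 786 of them in the top 10%, falling from 34.1 to 5.99 in the latter.

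Within genes, log2 ratios were taken after adding 0.5 CPM per site to both parts, which draws the ratios of low-density genes toward 0. Among 1027 genes of the top 10% the median within-gene log2 ratio of promoter to body was 1.67 ± 0.0369, and 77.2% were higher at the promoter. Among 4515 genes of the lower 50% it was 0.09 ± 0.0420, and 54.0% were higher at the promoter. Those genes have densities under the median of 0.583, close to the added value. Their log2 ratio can therefore not be set against that of the top 10%. Over all 9498 genes the median within-gene ratio was 0.55 ± 0.0227. The log2 ratio of 2.00 between pooled classes was taken without the added value, so the 2 are not on the same scale.

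Exonic sites had lower density than intronic sites, 2.47 ± 0.0277 against 3.56 ± 0.0119 CPM per site, with log2 ratios of -0.55, -0.53 and -0.50. Between 250 and 1000 bp from a start exons and introns had 2.76 and 7.75 CPM per site, and beyond 5000 bp they had 0.768 and 1.67. Exons are richer in GC (49.8% against 41.2%) and adjoin shorter fragments (median 267 bp against 483 bp), and fragment length moves with density, which was 0.121 ± 0.0210 CPM per site where the longer adjoining fragment was under 100 bp and 4.56 ± 0.107 from 500 to under 1000 bp. Beyond 250 bp from a start, introns were higher where that fragment was 200 to under 500 bp (3.61 against 1.72) or 500 to under 1000 bp (4.96 against 3.75), and exons were higher where it was 2000 bp or more (1.83 against 1.64). By GC content, exons were higher below 0.3 (2.04 against 1.24), and introns were higher in the other 4 classes, from 2.70 against 2.45 at 0.3 to 0.4 to 4.31 against 1.28 at 0.6 and above. Over the 6965 genes with both, the median within-gene log2 ratio of exon to intron was -0.05 ± 0.0231, and among those in the top 10% it was -0.97 ± 0.0255. These ratios also had 0.5 CPM per site added to both parts, which draws those of low-density genes toward 0. Sites in genes averaged 2.94 ± 0.0114 CPM per site and sites in none 1.61 ± 0.0143, of which those up to 1000 bp from a start had 5.43 and those farther away 0.894.

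**Figure D4:**
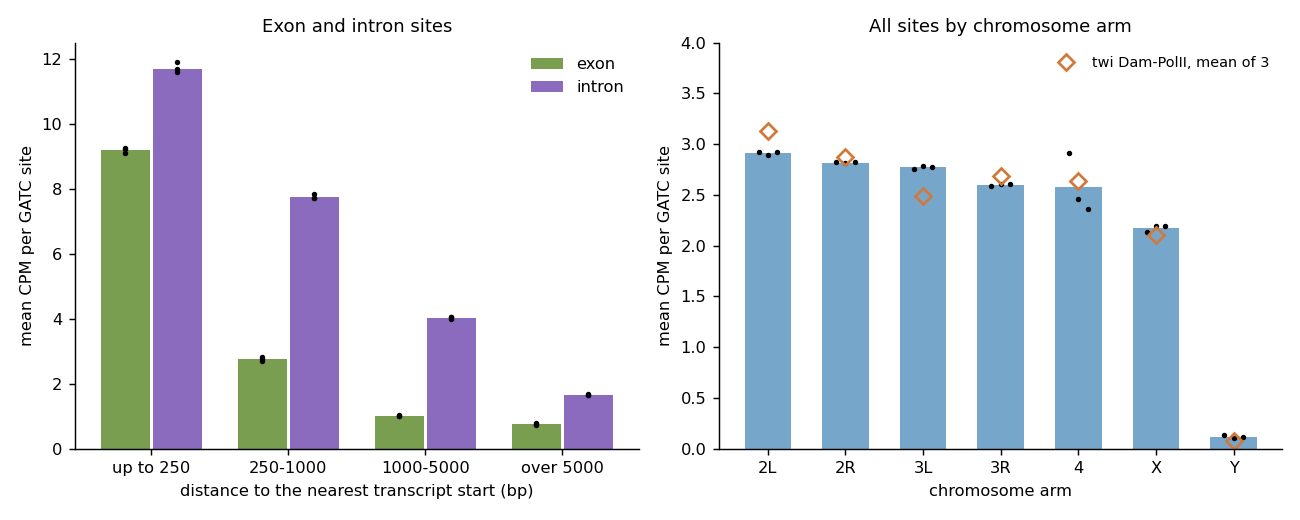
Mean CPM per GATC site in bap Dam-PolII (bars, mean of 3 libraries; points, libraries) for exon and intron sites by distance to the nearest transcript start (bp, left) and by chromosome arm (right, with the twi Dam-PolII mean as diamonds). Introns exceed exons in each distance class, and the 3 libraries disagree most on chromosome 4.

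Chromosome arms differed modestly. The arms 2L, 2R and 3L averaged 2.91, 2.81 and 2.78 CPM per site and 3R 2.60, and the X averaged 2.17 ± 0.0290, a log2 ratio of -0.37, -0.33 and -0.34 to the autosome arms. That difference was larger than the spread between libraries. With the top 1% of sites left out it was -0.10. The fourth chromosome, small and rich in heterochromatin, had log2 ratios of 0.08, -0.17 and -0.23, so the replicates disagreed in direction. Its genes had a median density of 1.29 CPM per site, and 12 of 95 (12.6%) were in the top 10%, where pan, the gene of the Wingless effector TCF, contributed a site with 944, 721 and 651 CPM. The Y chromosome averaged 0.120 ± 0.0140 CPM per site.

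The top 100 sites held 6.80% of all counts, and 64 of them adjoined another of the 100. Of the 100 sites, 46 lay in exons, 43 in introns and 11 in no gene, against 41.7%, 31.9% and 26.4% of all sites on the arms, and 49 lay within 250 bp of a start. A pair of adjoining intronic sites of Trx2 held 1310 ± 54.7 and 1100 ± 28.5 CPM. A site inside tRNA:His-GTG-1-4, a gene of the kind transcribed by RNA polymerase III, held 1270, 1410 and 1300 CPM, and a site 6 bp after the start of Mical, the gene of an actin-oxidising enzyme, held 1060 ± 31.5 and is the far end of the fragment that begins at CG3909. Among windows of 50 kb, whose median was 1.20 CPM per site, the highest were those of Btk (54.7 ± 7.34), the histone cluster (52.6 ± 3.42), fz2 (43.0 ± 3.84) and shn (37.2 ± 3.67).

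Promoters of 13610 genes were searched on either strand for short motifs, whose matches are descriptions of letters and not of binding. GAGAG, the letters bound by GAGA factor, occurred in 30.5% of all promoters, 37.8% of those of the top 10% and 28.7% of those of the lower 50%. TATCGATA, the DNA replication-related element, occurred in 9.13%, 11.0% and 5.95%, and TATAAA in 43.8%, 43.1% and 44.8%. TCAAGTG, a site for NK homeodomain proteins, occurred in 4.89% of all promoters and in those of Alk, bap, bin and org-1 among the 12 VM genes. TAAACA, of forkhead factors, which can overlap TATAAA, occurred in 32.1% of all and in 6 of the 12, and CATATG, an E-box, in 7.75% and in 2 of the 12. Of the sequences above, TATCGATA is in the CG3909 promoter, and GAGAG is in CG3909, Tm2 and the Btk fragment.

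The profile of bap Dam-PolII was then compared with that of twi Dam-PolII, which the labels set apart only by the driver. Given the jeb reads in all 3 bap libraries, an effect of the driver and an effect of added Jeb cannot be told apart in any of these differences, including those of VM genes such as Hand, org-1, Alk and Kah and of dpp. In whole embryos, fewer labelled cells of a type and less occupancy per cell cannot be told apart. Counts summed per gene were tested for 11133 genes by the quasi-likelihood test of edgeR, and at an adjusted p under 0.01 1787 genes (16.1%) were higher and 1324 (11.9%) lower in bap, 57.4% of the calls being higher. Scaling to total counts gave 1354 higher and 1802 lower (42.9% higher), and the median log2 difference over all genes tested was -0.10 with TMM scaling and -0.31 with total counts. Differences are read against those medians.

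Of the 12 VM genes, 10 were higher in bap against a background of 16.1%, 1 was lower and Antp was not called. The median log2 difference over the list was 1.13, and 10 were also higher with total counts and with each library left out, but 5 with all 18 libraries in 1 fit. Fas3 showed the largest, at 15.4, 15.3 and 15.8 CPM per site against 3.21, 3.48 and 3.36, a log2 difference of 2.42 (SE 0.08, edgeR adjusted p = 5.10e-14), and 94 of its 97 sites were higher in bap. H2.0 rose by 2.08 (edgeR adjusted p = 1.28e-12) and org-1 by 1.98 (1.70e-11). Hand had 46.6, 38.8 and 39.7 against 17.1, 13.9 and 15.7 (log2 1.63, SE 0.12, edgeR adjusted p = 3.68e-09), with all 7 of its sites higher. Alk was higher by 1.24 (edgeR adjusted p = 1.54e-06) and Kah by 0.56 (1.22e-06). In contrast bap was lower, with 2.91, 2.46 and 3.38 against 6.51, 5.20 and 5.62 (log2 -0.77, edgeR adjusted p = 0.00413), and this call was lost when any of 4 of the 6 libraries was left out.

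Other mesodermal lists had more genes lower than higher in bap. Of these, the fusion list is not apart from the VM, whose cells include fusion-competent myoblasts. Of 18 somatic muscle identity genes 14 were lower against a background of 11.9%, with a median log2 difference of -1.72. They included slou, a homeobox gene of founder cells, at 0.112 ± 0.0591 against 2.54 CPM per site, and ap at 0.917 ± 0.0316 against 5.75. Cardiac mesoderm had 11 of 13 lower and early mesoderm 7 of 12. In myoblast fusion 8 of 15 were lower, led by sns, the receptor of fusion-competent myoblasts (2.15, 2.75 and 2.67 against 14.8, 15.2 and 15.5), and Vrp1, an actin regulator (6.90 ± 0.174 against 39.1 ± 0.866), while siz and WASp were higher. Hemocyte markers were lower in 8 of 11 with a median log2 difference of -1.84, and neurons and neuroblasts in 6 of 17, with cpo higher. With all 18 libraries in 1 fit, 9 somatic identity, 6 cardiac, 4 early mesoderm, 4 fusion, 8 hemocyte and 3 neuronal genes stayed lower.

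Markers of other cell types differed between bap and twi Dam-PolII, in both directions. The summed density of the 11 hemocyte markers was 8.9 to 9.8 in bap and 30.2 to 32.1 in twi, with PPO2, NimC1, Hml, Pxn, PPO1 and Sr-CI under 0.2 CPM per site in bap and none at 0. The 8 glial markers summed to 26.1 to 28.3 against 24.7 to 25.4, with moody and pnt called higher and gcm lower. The 17 neuronal markers summed to 24.4 to 25.3 against 38.7 to 38.9, the 8 fat body markers to 16.9 to 20.3 against 45.7 to 50.7 and the 10 endoderm markers to 27.4 to 29.8 against 52.5 to 57.5. The gene srp is in both of these lists and carries most of both gaps, since without it the fat body sums were 13.6 to 16.8 against 19.1 to 23.0 and the endoderm sums, which then overlap, 24.0 to 26.5 against 24.3 to 29.8. The 10 tracheal markers summed to 23.8 to 25.9 against 15.7 to 18.2, with 4 called higher and 2, knrl and apt, lower. Most of that gap was pio, at 7.83 ± 0.484 against 0.800, without which the sums overlapped at 16.0 to 18.1 against 14.8 to 17.6. The 12 epidermal markers summed to 44.1 to 50.4 against 50.0 to 54.9, with 5 called higher and 1, ttk, lower, and crb, an apical polarity gene, was at 8.28 ± 0.210 against 0.960. With all 18 libraries in 1 fit, 2 tracheal, 1 epidermal and 0 glial genes were called higher, and with total counts 3, 3 and 2. The part of these cells in the other differences was not tested.

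Ribosomal protein, histone and Notch-responsive genes were lower as well. So were 8 of 15 cytoskeleton and constitutive genes, with 1 higher and a median log2 difference of -0.69. Other housekeeping families had calls in both directions, against backgrounds of 16.1% higher and 11.9% lower. Of proteasome genes 2 were higher and 4 lower of 37, of respiratory chain genes 3 and 1 of 58, of mitochondrial ribosomal protein genes 1 and 1 of 48, and of translation factors 5 and 7 of 44. All 29 called ribosomal protein genes of 73 tested were lower, and 9 of 10 Enhancer of split genes, the direct targets of Notch, with a median log2 difference of -2.86, for example E(spl)m4-BFM at 5.19 ± 0.870 against 52.6 ± 3.14. Of 25 histone genes 23 were lower, with the uncertainty about copies named above. With all 18 libraries in 1 fit, 8 ribosomal protein, 5 Enhancer of split, 1 cytoskeleton or constitutive and 0 histone genes were lower, by edgeR in each case. Signalling genes of the midgut were higher in 12 of 20 and lower in 2, with dpp at a log2 difference of 1.64 (edgeR adjusted p = 1.54e-12), fz2 at 1.28 and wg at 1.29, and N and ptc lower. These were 8 higher and 2 lower with total counts, and 3 higher with all 18 libraries in 1 fit. Sarcomere genes split, with 9 higher and 4 lower of 21, Zasp52 being highest at a log2 difference of 2.00 and Act57B not called. With total counts the split was 3 and 6, so no direction is given for that list. For the Ras-ERK cascade it was 5 higher and 1 lower of 17, and with total counts 2 and 4.

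**Figure D5:**
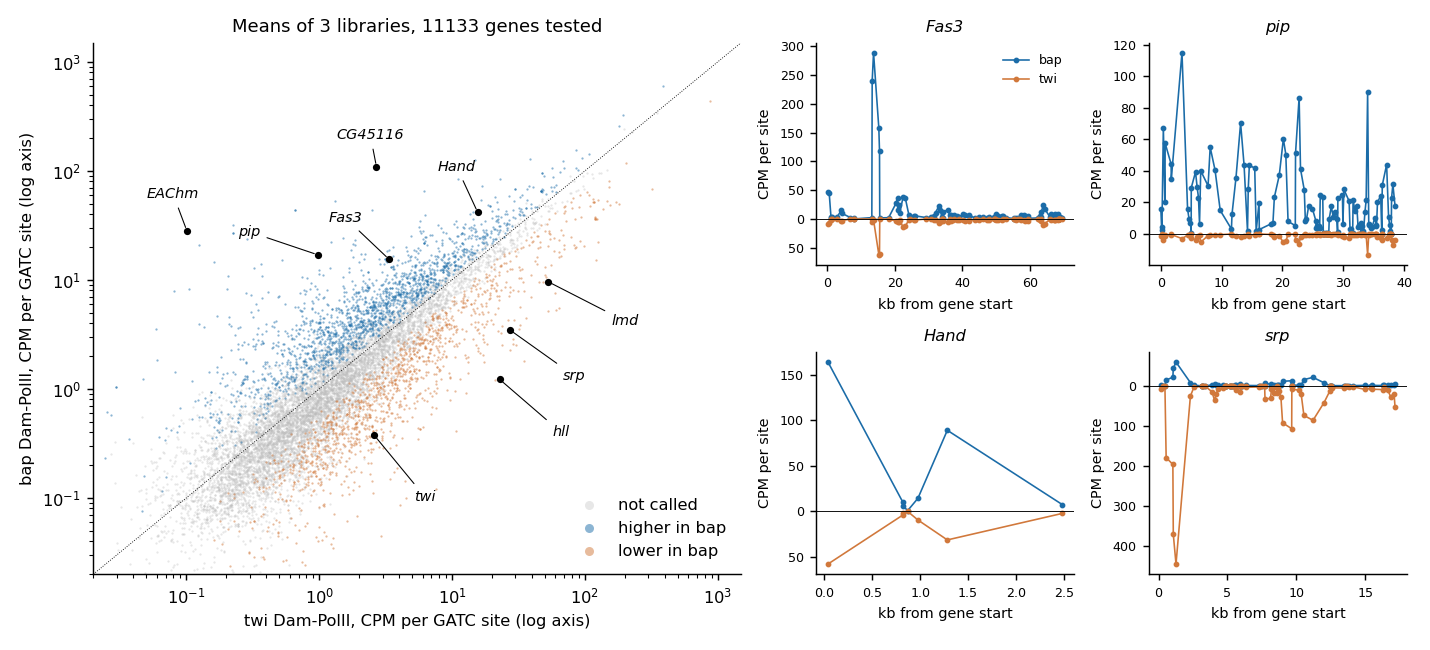
Left, density per gene in bap against twi Dam-PolII (CPM per GATC site, log axes, means of 3 libraries), with 1787 genes called higher (blue) and 1324 lower (orange) of 11133 tested by edgeR. Right, mean CPM at each GATC site along Fas3, pip, Hand and srp (kb from the gene start), bap upward and twi downward, where pip is higher in bap at 124 of its 128 sites.

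The 6 genes higher in bap with the smallest adjusted p were pip, Polr2A, EAChm, Sytbeta, Fas3 and ftz-f1. For pip, a sulfotransferase gene, the values were 16.9, 17.3 and 16.9 against 0.907, 1.05 and 0.967 CPM per site (log2 4.34, SE 0.08, edgeR adjusted p = 3.97e-17), and bap was higher at 124 of its 128 sites, the other 4 being at 0 in both. EAChm had 30.1, 24.9 and 29.6 against 0.128, 0.0677 and 0.108 (log2 8.37, SE 0.23), and all of its 9 sites lie within Sytbeta, a synaptotagmin gene, which had 7.28 ± 0.706 against 0.309 ± 0.0527 and shares 39 of its 117 sites. The nuclear receptor gene ftz-f1 had 25.1, 26.3 and 26.1 against 7.20, 6.68 and 6.73 (log2 2.12). It shares 58 of its 101 sites with lncRNA:CR45939, and with unshared sites its log2 difference was 2.44. Polr2A (log2 2.88) is set aside for the reason given at the outset, its 4 sites outside exons averaging 16.3 ± 1.54 in bap and 17.6 ± 1.76 in twi.

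The 6 genes lower in bap were srp, Vrp1, lncRNA:CR44133, hll, twi and sns. The GATA factor gene srp, of blood and fat body, had 3.45, 3.59 and 3.30 against 27.7, 28.2 and 26.6 (log2 -2.78, SE 0.08, edgeR adjusted p = 4.84e-15), and twi was higher at 70 of its 78 sites. All 38 sites of lncRNA:CR44133 are inside srp, so the pair is 1 signal. The gene hll had 1.37, 1.10 and 1.18 against 26.1, 22.2 and 20.3 (log2 -4.02), and twi had 0.398, 0.363 and 0.363 against 2.57, 2.53 and 2.70 (log2 -2.58), the latter being the gene whose enhancer drives the other group. Of the 234 sites of the gene twi, 162 are shared with other genes, and with unshared sites its log2 difference was -3.01. These 12 genes were chosen among called genes whose libraries do not overlap between the groups. Nearly all called genes meet that condition (3030 of 3111), so it narrows the choice little and is no result about the 12.

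The tops of the bap and twi rankings overlapped in part. Of the 1364 genes of the top 10% in bap, 978 (71.7%) were also in the top 10% in twi, and of the top 25 genes 10 were in the twi top 25 and 20 in the twi top 100. CG45116 is the member of the top 25 that stood farthest from twi, at rank 15 against 3077, with 89.4, 119 and 117 CPM per site against 4.02, 1.15 and 2.93. It lies in a 50 kb window of chromosome 3L, with lncRNA:CR43270 and Jhbp6, that averaged 31.3 ± 1.81 CPM per site in bap and 3.77 in twi.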

How the data were processed

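Genomic DNA of the 3 bap Dam-PolII and 3 twi Dam-PolII libraries was used, and the other 12 only for the check of labels and for 1 alternative fit. Paired reads were mapped by the authors with Bowtie2 to FlyBase Release 6, and raw counts of reads per GATC site were deposited. The deposited peak tables, which hold the authors' own p-values and FDR, were not used. All count columns matched a label. Positions on the 7 arms (383661 sites) were identical to GATC in the Release 6 genome, and genes came from Ensembl 115 without transposable elements. A site in several genes counted for each, as 9.52% of genic sites do, and counts were not corrected for fragment length.

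Densities are means ± SD of 3 libraries. Gene counts were tested with edgeR 4.0.16 in R 4.3.3 (filterByExpr with a min.count of 10, TMM, two-sided quasi-likelihood test, Benjamini-Hochberg over all genes tested, called under 0.01), with limma 3.58.1 and DESeq2 1.42.0 as alternatives. Tested on simulated data over 11133 genes, edgeR recovered 31.0% of 100 genes changed by a log2 of 1 and 70.0% of 100 changed by 2, with 1 unchanged gene called, and 0 genes where none changed. Python 3.11.15 with pandas 2.3.3 and numpy 2.4.6 did the rest.

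The genes and lists were chosen with earlier results of these data known. Named are the 25 densest genes, list members, the 6 genes called in each direction with the smallest adjusted p and no overlap of libraries, and the 10 highest sites. Other genes were named after their values were seen. Depth was 6861886 to 10140429 counts in bap and 6056257 to 9854555 in twi Dam-PolII.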

Additional observations from a re-analysis of the deposited data

How the results depend on the processing

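Of 298 alternative values, 269 kept their direction and stayed within the limit used for their kind (for counts, 1.5 times the main count; for ratios and percentiles, 1 SD between libraries; for tested genes, the same side of the threshold), and these include all 213 for the 12 named genes. Those genes were picked for the smallest adjusted p in these data, so their staying called says little. The 28 values that moved and the 1 that reversed all belong to the other results. In log2 ratios, using only sites beside fragments of 200 to 2000 bp gave 1.91 for promoter over body, -0.21 for exon over intron, 1.05 for genic over intergenic and -0.30 for the X over autosome arms. Leaving out the top 1% of sites gave 1.33, -0.56, 0.74 and -0.10, turned chromosome 4 to 0.17, and raised the number of genes that hold 50% of density to 1323. Sites with a count in every library gave 1.39, -0.29, 0.35, -0.33 and, for chromosome 4, -0.64. A promoter of 500 bp gave 1.81. The median within-gene ratio of mean CPM, with 0.5 CPM per site added to both parts, gave 0.55 for promoter over body and -0.08 for exon over intron. With the median CPM of a gene's sites, 227 genes held 50%. The median percentile of the VM list was 96.5 with 5 or more sites per gene, 96.5 with unshared sites, 96.4 with the median, 97.5 without each gene's highest site and 97.0 per kb. That of chemoreceptors was 12.7 with those fragments, 13.3 with 5 or more sites, 6.82 with 10 or more and 10.1 with the median. The causes were not tested.

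Between bap and twi, 936 genes were called with all 18 libraries in 1 fit, 934 of them among the 3111. Leaving out 1 library gave 2568 to 2837, DESeq2's Wald test 3484, limma-voom 3161 and unshared sites 2579. Same-numbered libraries did not deviate together across genes (r = 0.0303, -0.0052 and -0.0217). That cannot show whether they were collected or processed together, which the labels do not say. A replicate block gave 3090 calls. Depth limits genes near 3 counts, and short genes rest on few fragments.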
